A study of Arabidopsis thaliana with 9 samples.

Results

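The 10 autophagy genes of Arabidopsis thaliana followed here in rosette leaves are 8 genes for the ubiquitin-like protein ATG8 (ATG8a, ATG8b, ATG8d, ATG8e, ATG8f, ATG8g, ATG8h and ATG8i), the cargo receptor gene NBR1 and the conjugation gene ATG5. They were chosen by locus identifier from the rows of the count tables, and all 10 were found among 33610 listed genes and passed the filter on low counts that left 22019 for testing. The ninth ATG8 gene, ATG8c, is given beside them. Plants of the accession Col-0, with no further genetic change in the labels, were grown on soil at 22 °C under 8 h of light a day for 5 to 6 weeks. In the Alternaria group, leaves had received spores of Alternaria brassicicola, a fungus that kills leaf tissue and feeds on it, as a spray of 1000000 spores per ml in 0.01% of the wetting agent Silwet L-77, and were taken 3 days later. The other groups were mock treated and untreated Col-0 leaves. The labels give neither the content of the mock liquid nor the harvest time of mock and untreated leaves, so treatment and time of day cannot be told apart. Each group had 3 messenger RNA libraries, which the labels call biological replicates.

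Autophagy encloses cell material in a double membrane, the autophagosome, and delivers it to the vacuole for breakdown. ATG8 is cut by the protease ATG4 behind a glycine, activated by ATG7, passed to ATG3 and joined to the membrane lipid phosphatidylethanolamine with the help of a complex of ATG5, ATG12 and ATG16. Membrane-bound ATG8 draws in receptors such as NBR1, which binds ubiquitin-tagged protein aggregates and is itself degraded with its cargo. In Arabidopsis leaves, plants without a working autophagy pathway are known for early yellowing and for stronger disease after attack by fungi that feed on killed tissue, A. brassicicola among them. Read counts measure transcripts, not the flow of material through this pathway.

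The ATG8 family divides at the 3′ end of its coding sequences, which are printed because they show which family members need ATG4 to expose the glycine. The capitals mark the codon of the glycine that aligns across the family. Sequences are the sense strand of the RefSeq annotation of TAIR10.1, from 5 codons before that glycine to the stop codon.
ATG8a: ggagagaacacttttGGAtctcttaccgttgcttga
ATG8b: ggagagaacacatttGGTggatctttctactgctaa
ATG8c: ggagagaacacctttGGTttggtttaa
ATG8d: ggtgagaacacgttcGGGatcttcttctaa
ATG8e: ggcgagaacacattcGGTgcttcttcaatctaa
ATG8f: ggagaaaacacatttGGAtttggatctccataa
ATG8g: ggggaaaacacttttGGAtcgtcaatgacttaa
ATG8h: accgagaaaactttcGGCtaa
ATG8i: agtgagaaaacctttGGTtga
ATG8h and ATG8i ended at the glycine codon, with 0 codons between it and the stop codon. The other 7 genes had 2 to 5 further codons, with 2 in ATG8c, 3 in ATG8d, 4 in ATG8e, ATG8f and ATG8g, and 5 in ATG8a and ATG8b. Coding sequences of the 36 gene pairs were 44.2 to 77.5% identical, and ATG8h and ATG8i were 66.1% identical to each other. The longest run of identical bases shared by any pair of transcripts was 53 bases, in ATG8a and ATG8b, so a read lying wholly inside that run could not be assigned to either gene alone.

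Reads assigned to genes numbered 28758293 to 33738207 per library in the Alternaria group, 28826970 to 36061529 in the mock group and 22713147 to 30902196 in the untreated group. The lowest counts among the 10 genes were those of ATG8g, at 51 to 161 reads per library, and the highest those of NBR1, at 1907 to 7131. Levels are counts per 1000000 reads in genes after scaling between libraries (CPM). Log2 changes are given with their standard error (SE), and a change passed the test at an adjusted p under 0.05 in edgeR's quasi-likelihood test with Benjamini-Hochberg adjustment over all 22019 genes. Leaf mesophyll markers fell in Alternaria against mock leaves, in 5 of 5 genes of a list that holds RBCS1A, RCA, GAPA, LHCB4.1 and CA1. In that comparison 26.1% of all tested genes fell and 29.5% rose. The summed level of the mesophyll markers was 17029 to 18048 CPM in Alternaria, 28910 to 30597 CPM in mock and 34763 to 36979 CPM in untreated libraries. Epidermis markers summed to 278 to 304 CPM in Alternaria, 415 to 429 CPM in mock and 621 to 655 CPM in untreated libraries. Of their 3 genes 2 fell in Alternaria against mock, while PDF1 averaged 92.3 CPM in Alternaria leaves and 85.6 CPM in mock leaves and did not pass. Xylem vessel markers summed to 43.7 to 56.4 CPM in Alternaria, 64.0 to 84.3 CPM in mock and 102 to 130.2 CPM in untreated libraries, and 3 of 4 fell in Alternaria against mock. Phloem markers summed to 113 to 122 CPM in Alternaria, 98.1 to 118 CPM in mock and 138 to 159 CPM in untreated libraries. Of these, SUC2 rose by 0.50 and SEOR1 fell by 0.74 on the log2 scale in Alternaria against mock. Markers of dividing cells summed to 11.4 to 13.7 CPM in Alternaria, 12.5 to 14.2 CPM in mock and 22.1 to 26.1 CPM in untreated libraries. None of these 3 passed in Alternaria against mock, and 3 of 3 fell in each other comparison. Of all tested genes 31.8% fell in Alternaria against untreated and 14.1% in mock against untreated leaves. Guard cell markers summed to 66.2 to 72.0 CPM in Alternaria, 64.1 to 66.5 CPM in mock and 68.2 to 81.6 CPM in untreated libraries. Of their 5 genes KAT1 rose by 0.73 and MYB60 fell by 1.02 on the log2 scale in Alternaria against mock, and 3 did not pass. The part of these markers in the results was not tested, and in whole leaves fewer cells of a type and less RNA per cell cannot be told apart. Summed root markers stayed at or under 1.84 CPM and summed flower markers at or under 6.47 CPM in every library, with AP3 at 0 to 9 reads.

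Alternaria against mock leaves compares leaves sprayed with spores with leaves that received a mock treatment. All 8 ATG8 genes, NBR1 and ATG5 rose, and for all 10 the 3 Alternaria libraries lay above the 3 mock libraries. Over all tested genes 29.5% rose by the same rule and 32.8% lay wholly above mock. The median log2 change was 0.92 over the 10 genes and -0.02 over all tested genes. Of 6 reference genes (ACT2, UBQ10, PP2AA3, TIP41L, UBC21 and UPL7), 3 rose and 1 fell, beside 29.5% and 26.1% of all tested genes. Their log2 changes ran from -0.21 to 0.52, with a median of 0.23. ATG8e, ATG8a, NBR1 and ATG8f at least doubled, a rise that 11.7% of all tested genes reached. Of all tested genes 6489 rose and 5752 fell, and under upper-quartile scaling, which moves the all-gene median by -0.17, 4937 rose and 8114 fell. All 10 genes rose under that scaling too.

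**Figure D1:**
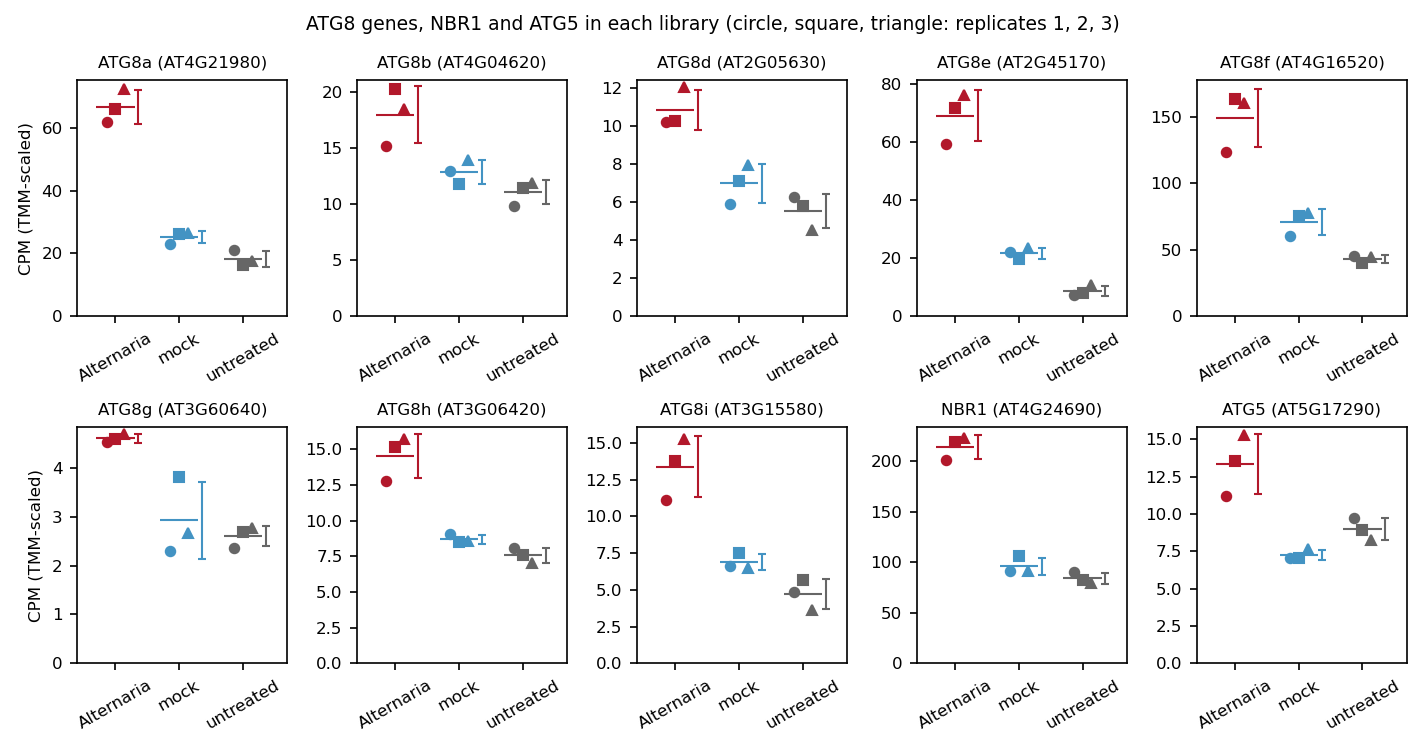
Level of each of the 10 genes in every library, in CPM on a linear axis from 0, with Alternaria left of mock and mock left of untreated; symbols are replicates, short lines means and error bars the SD (n = 3). In every panel all 3 Alternaria points lie above the mock and the untreated points, and for ATG5 the mock points lie below the untreated points.

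ATG8e (AT2G45170, TAIR10.1 chr2:18624264-18625791, plus strand) rose most of the ATG8 genes. It stood at 59.3, 71.7 and 76.1 CPM in the 3 Alternaria libraries, 22.0, 19.7 and 23.4 CPM in the mock libraries and 7.24, 7.86 and 10.7 CPM in the untreated libraries. The groups formed 3 separate steps, with Alternaria highest and untreated lowest. The log2 change in Alternaria against mock was 1.67 ± 0.13 (SE, adjusted p = 3.30e-07, edgeR quasi-likelihood test), or 3.18-fold, and 6.49% of all tested genes rose further.

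ATG8a (AT4G21980, chr4:11655562-11657034, plus strand) stood at 61.8, 66.0 and 72.5 CPM in Alternaria libraries, 22.9, 26.2 and 26.5 CPM in mock libraries and 21.1, 16.2 and 17.5 CPM in untreated libraries. Its groups did not overlap, and mock lay much closer to untreated than to Alternaria. Its log2 change in Alternaria against mock was 1.41 ± 0.10 (adjusted p = 2.06e-07, edgeR quasi-likelihood test). The annotation places AT4G21990 on the other strand over part of ATG8a, and whether the counting used strand is not given in the sources used here. That neighbour moved otherwise, at 164 CPM in Alternaria, 173 CPM in mock and 432 CPM in untreated leaves on average.

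ATG8f (AT4G16520, chr4:9306339-9308538, minus strand) held the most reads of the family. It stood at 124, 163 and 160.3 CPM in Alternaria libraries, 60.0, 75.1 and 77.6 CPM in mock libraries and 45.0, 39.7 and 44.1 CPM in untreated libraries. Alternaria replicate 1 was the lowest of its group, still above every mock library. The log2 change in Alternaria against mock was 1.07 ± 0.12 (adjusted p = 7.06e-06, edgeR quasi-likelihood test).

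The genes that end at the glycine, ATG8h and ATG8i, rose less than ATG8e and ATG8a. ATG8h (AT3G06420, chr3:1954990-1956397, minus strand) stood at 12.8, 15.1 and 15.7 CPM in Alternaria libraries, 9.06, 8.47 and 8.56 CPM in mock libraries and 8.08, 7.60 and 7.03 CPM in untreated libraries. ATG8i (AT3G15580, chr3:5273526-5275095, minus strand) stood at 11.1, 13.8 and 15.3 CPM in Alternaria libraries, 6.65, 7.49 and 6.47 CPM in mock libraries and 4.88, 5.64 and 3.64 CPM in untreated libraries. Both had Alternaria libraries clear of the rest. The log2 change in Alternaria against mock was 0.74 ± 0.11 for ATG8h and 0.96 ± 0.16 for ATG8i (adjusted p = 6.12e-05 and 1.72e-04, edgeR quasi-likelihood test). A gene that overlaps ATG8i on the other strand, AT3G15578, had 0 to 4 reads per library.

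The remaining ATG8 genes had smaller rises. ATG8b (AT4G04620, chr4:2328442-2330590, minus strand) stood at 15.2, 20.2 and 18.5 CPM in Alternaria libraries, 12.9, 11.8 and 13.9 CPM in mock libraries and 9.84, 11.4 and 11.8 CPM in untreated libraries. ATG8d (AT2G05630, chr2:2082894-2084905, minus strand) stood at 10.2, 10.2 and 12.0 CPM in Alternaria libraries, 5.88, 7.10 and 7.95 CPM in mock libraries and 6.27, 5.77 and 4.52 CPM in untreated libraries. ATG8g (AT3G60640, chr3:22415751-22417548, plus strand) stood at 4.53, 4.60 and 4.71 CPM in Alternaria libraries, 2.30, 3.81 and 2.68 CPM in mock libraries and 2.37, 2.69 and 2.76 CPM in untreated libraries. In these genes the mock and untreated libraries overlapped, and the Alternaria libraries lay above both. Their log2 changes in Alternaria against mock were 0.48 ± 0.12 for ATG8b, 0.64 ± 0.14 for ATG8d and 0.66 ± 0.18 for ATG8g (adjusted p = 0.00405, 0.00232 and 0.00803, edgeR quasi-likelihood test). Under upper-quartile scaling the ATG8b change was 0.30, and the largest adjusted p for ATG8b over 18 alternatives was 0.0477. ATG8c (AT1G62040, chr1:22932760-22934549, plus strand) averaged 21.1 CPM in Alternaria, 16.0 CPM in mock and 12.0 CPM in untreated leaves and rose by 0.40 ± 0.13 over mock (adjusted p = 0.0166, edgeR quasi-likelihood test). Its call was lost under upper-quartile scaling (0.22, adjusted p = 0.136) and without mock replicate 1, mock replicate 2 or Alternaria replicate 3 (adjusted p = 0.0923, 0.0764 and 0.0671).

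NBR1 (AT4G24690, chr4:12741032-12744670, plus strand) is the selective receptor of the set. It stood at 200.4, 219 and 223 CPM in Alternaria libraries, 91.3, 106 and 90.9 CPM in mock libraries and 90.0, 82.1 and 79.8 CPM in untreated libraries. Mock and untreated libraries lay within a narrow band, and every Alternaria library was at or above 200.4 CPM. The log2 change in Alternaria against mock was 1.16 ± 0.08 (adjusted p = 1.71e-07, edgeR quasi-likelihood test), or 2.23-fold, with a 95% interval of 0.98 to 1.34. AT4G24700, on the other strand over part of NBR1, averaged 2.06 CPM in Alternaria, 5.58 CPM in mock and 8.02 CPM in untreated leaves.

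ATG5 (AT5G17290, chr5:5686135-5689947, minus strand) encodes the protein to which ATG12 is joined. It stood at 11.2, 13.6 and 15.3 CPM in Alternaria libraries, 7.04, 7.03 and 7.67 CPM in mock libraries and 9.70, 8.95 and 8.24 CPM in untreated libraries. It was the only 1 of the 10 genes whose mock libraries all lay below the untreated libraries. The log2 change in Alternaria against mock was 0.88 ± 0.12 (adjusted p = 5.33e-05, edgeR quasi-likelihood test). AT5G17280, which overlaps ATG5 on the other strand, averaged 18.0 CPM in Alternaria, 12.3 CPM in mock and 15.7 CPM in untreated leaves. That is the same order of groups as ATG5. Without the strand setting, it is not known how reads in the stretch shared by this pair were assigned.

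Alternaria against untreated leaves shares its Alternaria libraries with the comparison above, so the values are set side by side. All 10 genes rose, and all 10 had Alternaria libraries wholly above the untreated ones. Over all tested genes 33.1% rose and 35.0% lay wholly above untreated. The median log2 change was 1.16 over the 10 genes and -0.04 over all tested genes, of which 7287 rose and 7001 fell, or 5549 and 9234 under upper-quartile scaling (all-gene median moved by -0.20). ATG8e rose by 3.01 ± 0.14 on the log2 scale, or 8.03-fold, and 3.10% of all tested genes rose further. ATG8a rose by 1.87 ± 0.11, ATG8f by 1.80 ± 0.12, ATG8i by 1.49 ± 0.16 and NBR1 by 1.35 ± 0.08. ATG8d rose by 0.97 ± 0.15, ATG8h by 0.94 ± 0.11, ATG8g by 0.82 ± 0.19 and ATG8b by 0.70 ± 0.12. ATG5 rose least, by 0.57 ± 0.12 (0.38 under upper-quartile scaling). The largest adjusted p among the 10 was 0.00217 (edgeR quasi-likelihood test). ATG8c rose by 0.81 ± 0.13 (adjusted p = 1.26e-04, edgeR quasi-likelihood test). Of the 6 reference genes 4 rose and 1 fell, beside 33.1% and 31.8% of all tested genes. Their log2 changes ran from -0.68 to 0.68, with a median of 0.34.

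Mock against untreated leaves divided the set. ATG8e, ATG8f, ATG8i and ATG8a rose, 0 genes fell and 6 did not pass the test, while 15.1% of all tested genes rose and 14.1% fell. ATG8e rose by 1.34 ± 0.14 on the log2 scale (adjusted p = 4.08e-05, edgeR quasi-likelihood test), or 2.53-fold, and 1.47% of all tested genes rose further. ATG8f rose by 0.72 ± 0.12 and ATG8a by 0.47 ± 0.11 (adjusted p = 9.77e-04 and 0.00630, edgeR quasi-likelihood test). ATG8i rose by 0.53 ± 0.17 (adjusted p = 0.0318, edgeR quasi-likelihood test), but its call was lost with limma-voom (adjusted p = 0.0531) and without untreated replicate 3 (0.38, adjusted p = 0.112) or any of mock replicates 1, 2 and 3 (adjusted p = 0.0512, 0.0965 and 0.0553).

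NBR1 differed by 0.19 ± 0.08 between mock and untreated leaves (adjusted p = 0.0968, edgeR quasi-likelihood test, 95% interval 0.015 to 0.37), although its 3 mock libraries lay above the 3 untreated ones. Without untreated replicate 1 that difference was 0.25 and passed (adjusted p = 0.0463). ATG5 differed by -0.30 ± 0.13 (adjusted p = 0.0904, 95% interval -0.58 to -0.03, edgeR quasi-likelihood test). ATG8b, ATG8d, ATG8g and ATG8h differed by 0.22 ± 0.12, 0.34 ± 0.15, 0.16 ± 0.19 and 0.20 ± 0.11, with adjusted p from 0.117 to 0.582 (edgeR quasi-likelihood test). ATG8c rose by 0.42 ± 0.13 (adjusted p = 0.0317, edgeR quasi-likelihood test), a call lost without untreated replicate 2 or mock replicate 3 (adjusted p = 0.133 and 0.146). The median log2 change was 0.28 over the 10 genes and -0.01 over all tested genes. Of the 10 genes, 6 lay wholly above untreated in mock leaves (22.7% of all tested genes did) and ATG5 wholly below (21.9%). The authors' deposited tables gave the same counts at an adjusted p under 0.05, with all 10 up in both comparisons of Alternaria leaves and 4 up and 0 down in mock leaves.

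**Figure D2:**
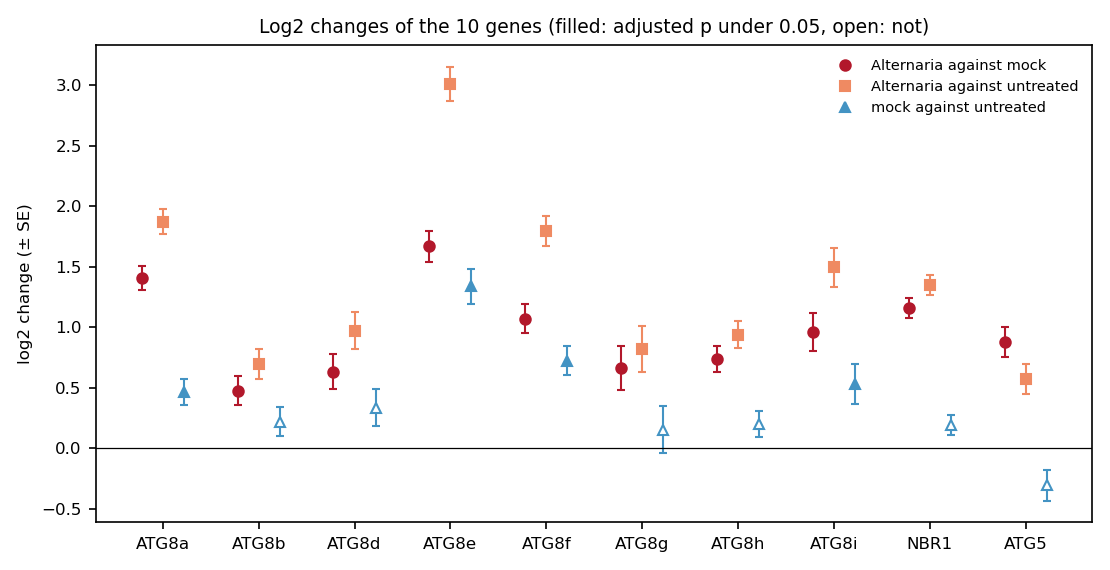
Log2 change of each gene with its SE in the 3 comparisons of groups, from edgeR's fit to all 9 libraries; filled symbols passed the test and open ones did not. ATG8e stands highest in all 3 comparisons (1.67, 3.01 and 1.34), and ATG5 is the only gene below 0 in mock against untreated (-0.30).

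Levels were also put on a scale per length, as CPM per kilobase of annotated exon, so that genes can be ranked within a group. In Alternaria leaves ATG8f (80.0 ± 11.8 CPM per kb), NBR1 (78.1 ± 4.34), ATG8e (75.4 ± 9.54) and ATG8a (70.7 ± 5.71) came first, and each neighbour in that order overlapped the next (mean ± SD, n = 3). ATG8h followed at 20.4 ± 2.17 CPM per kb, clear of both neighbours. ATG8b, ATG8i and ATG8d lay at 14.3 ± 2.03, 13.5 ± 2.11 and 11.5 ± 1.11 CPM per kb and overlapped. ATG5 at 6.17 ± 0.938 CPM per kb and ATG8g at 4.13 ± 0.0811 CPM per kb came last.

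In mock leaves the order began with ATG8f at 38.0 and NBR1 at 35.0 CPM per kb, which overlapped, then ATG8a at 26.7 and ATG8e at 23.7 CPM per kb, which also overlapped. In untreated leaves NBR1 led at 30.6 CPM per kb, ahead of ATG8f at 23.0 and ATG8a at 19.4 CPM per kb. ATG8e stood at 9.39 ± 1.99 CPM per kb there, where its libraries overlapped those of ATG8h at 10.6 and ATG8b at 8.80 CPM per kb. On this scale ATG8e thus overlapped ATG8f, NBR1 and ATG8a in Alternaria leaves and both ATG8h and ATG8b in untreated leaves. The order depends on the length used, which joins the exons of all annotated transcripts and is 1.864 kb for ATG8f and 0.915 kb for ATG8e. With counts divided by coding length instead, ATG8f held 41.6% and ATG8e 19.1% of the sum over the 9 ATG8 genes in Alternaria leaves. ATG8g had the lowest mean of the 10 in all 3 groups, at 2.62 CPM per kb in mock leaves, where it overlapped ATG5, and 2.33 CPM per kb in untreated leaves.

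The makeup of ATG8 transcripts was followed as each gene's share of the reads of all 9 ATG8 genes. The summed level of the 8 listed genes was 346 ± 41.5 CPM in Alternaria, 156 ± 13.0 CPM in mock and 101 ± 3.99 CPM in untreated leaves (mean ± SD, n = 3). ATG8e held 18.8% ± 0.285 of these reads in Alternaria, 12.7% ± 1.44 in mock and 7.58% ± 1.54 in untreated leaves. ATG8a held 18.3% ± 1.11 in Alternaria, 14.6% ± 0.391 in mock and 16.1% ± 1.69 in untreated leaves. ATG8f held the largest share throughout, at 40.5% ± 1.81 in Alternaria, 41.1% ± 2.33 in mock and 37.9% ± 0.789 in untreated leaves.

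The shares of ATG8b, ATG8c, ATG8d, ATG8g and ATG8h were lowest in the Alternaria libraries. ATG8b held 4.88% ± 0.323 in Alternaria, 7.50% ± 0.780 in mock and 9.76% ± 1.18 in untreated leaves. ATG8c held 5.78% ± 0.574 in Alternaria, 9.26% ± 0.871 in mock and 10.6% ± 0.930 in untreated leaves. ATG8h held 3.96% ± 0.0441 in Alternaria, 5.09% ± 0.644 in mock and 6.69% ± 0.529 in untreated leaves. ATG8d held 2.96% ± 0.277 in Alternaria, 4.04% ± 0.250 in mock and 4.88% ± 0.837 in untreated leaves, and ATG8g 1.27% ± 0.133 in Alternaria, 1.70% ± 0.420 in mock and 2.31% ± 0.249 in untreated leaves. For these 5 genes and ATG8e the Alternaria libraries did not overlap those of either other group. The 2-sided exact permutation p was 0.1 in each of these contrasts with Alternaria, the smallest that 3 against 3 libraries allow, and 0.142 after Benjamini-Hochberg adjustment over 27 tests. So these shares could not pass a threshold of 0.05 in this design. The ATG8f share in Alternaria against mock gave an exact permutation p of 0.8, and the ATG8i share gave 0.4.

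**Figure D3:**
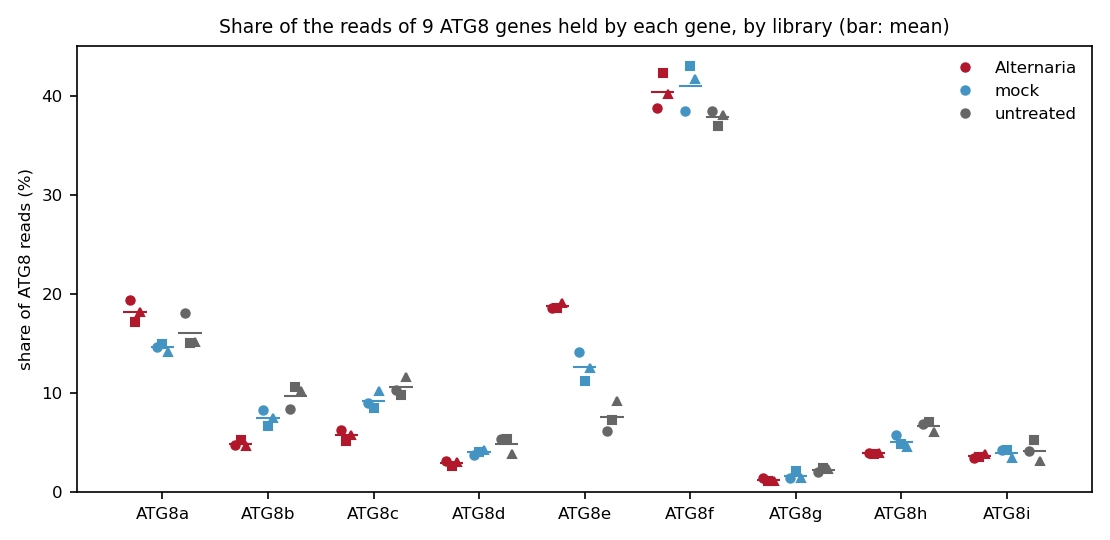
Share of the reads of 9 ATG8 genes held by each gene, in percent, in every library, with Alternaria left of mock and mock left of untreated; symbols are replicates and bars means. ATG8e steps down across the 3 groups (means 18.8, 12.7 and 7.58%) and ATG8b steps up (4.88, 7.50 and 9.76%), while ATG8f stays between 37.9 and 41.1% on average.

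Upstream sequences were searched on both strands for TTGAC, the core of the W-box bound by WRKY factors, for TGACG, bound by TGA factors, and for CACGTG, the G-box. The window was the 250 bases before the annotated start (RefSeq, TAIR10.1). TTGAC lay in 4 of the 10 windows (ATG8e, ATG8i, NBR1 and ATG5) and in 44.9% of 27437 windows over nuclear protein-coding genes. TGACG lay in 6 of the 10 (ATG8a, ATG8e, ATG8f, ATG8g, ATG8h and ATG8i) and in 18.6% of all windows, and CACGTG in 0 of the 10 and in 6.49% of all windows. The ATG8h window overlaps another annotated gene, AT3G06430, and the ATG8i window overlaps AT3G15585. ATG8e, which rose most, ATG8f, which held the most reads, and ATG8b, which had the smallest rise over mock, are printed 5′ to 3′ on the strand of the gene, with TTGAC and TGACG or their reverse complements in capitals.
ATG8e, plus strand of chr2:18624014-18624263: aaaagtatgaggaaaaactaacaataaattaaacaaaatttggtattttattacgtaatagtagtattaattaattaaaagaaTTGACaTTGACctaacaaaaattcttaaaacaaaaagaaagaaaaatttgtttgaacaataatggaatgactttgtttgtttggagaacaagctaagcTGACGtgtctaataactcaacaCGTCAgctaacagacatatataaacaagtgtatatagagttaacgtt
ATG8f, minus strand of chr4:9308539-9308788: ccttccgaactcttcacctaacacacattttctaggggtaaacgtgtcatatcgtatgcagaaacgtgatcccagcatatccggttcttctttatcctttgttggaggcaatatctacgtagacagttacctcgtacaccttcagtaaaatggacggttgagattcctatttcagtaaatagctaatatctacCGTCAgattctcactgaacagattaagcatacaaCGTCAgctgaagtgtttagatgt
ATG8b, minus strand of chr4:2330591-2330840: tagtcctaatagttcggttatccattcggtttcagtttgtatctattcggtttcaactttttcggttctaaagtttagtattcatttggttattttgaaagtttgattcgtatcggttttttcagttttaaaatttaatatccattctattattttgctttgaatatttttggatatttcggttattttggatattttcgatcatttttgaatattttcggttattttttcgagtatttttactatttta
The ATG8e window held 2 matches to TTGAC and 2 to TGACG, the ATG8f window 2 to TGACG, and the ATG8b window 0 to any of the 3 motifs. The ATG8d window also held 0. The ATG8i window held the most matches to TGACG, at 3, and 1 to TTGAC. The windows of ATG8a, ATG8g and ATG8h each held 1 to TGACG, and those of NBR1 and ATG5 each 1 to TTGAC. A link between the number of matches and the size of the rise was not tested. These matches describe the letters in the windows, and binding was not measured.

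Of 32 tested genes in 4 lists of core machinery, 29 rose in Alternaria against mock leaves and 0 fell, beside 29.5% and 26.1% of all tested genes, with a median log2 change of 0.58. Among conjugation genes 7 of 8 rose (6 under upper-quartile scaling), by 0.69 ± 0.10 for ATG7, which activates ATG8, 0.53 ± 0.08 for ATG3, which passes it on (0.35 under upper-quartile scaling), and 0.67 ± 0.10 for the protease gene ATG4a. ATG10, whose protein joins ATG12 to ATG5, rose by 1.30 ± 0.20. ATG12b averaged 2.31 CPM in Alternaria leaves and 2.22 CPM in mock leaves and did not pass.

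The ATG1 kinase complex, which starts autophagosome formation, had 8 of 8 genes higher in Alternaria against mock leaves (6 under upper-quartile scaling). ATG13a rose by 0.96 ± 0.12, ATG101 by 0.90 ± 0.12, ATG13b by 0.81 ± 0.14 and ATG1a by 0.73 ± 0.11. In the list of ATG9, ATG2 and ATG18 genes, which supply membrane and lipids, 9 of 10 rose. ATG2, for a lipid transfer protein, rose by 1.50 ± 0.09, with 65.5, 70.8 and 78.3 CPM in Alternaria libraries, 25.2, 25.5 and 25.0 CPM in mock libraries and 16.2, 13.3 and 13.5 CPM in untreated libraries. Its 3 groups were as cleanly stepped as those of ATG8e. ATG18a, ATG18c and ATG18f rose by 0.78 ± 0.07, 0.60 ± 0.10 and 0.84 ± 0.08, and ATG18e, with 0.790 CPM in Alternaria leaves and 1.22 CPM in mock leaves, did not pass.

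In the phosphatidylinositol 3-kinase complex, which marks the forming membrane, 5 of 6 genes rose in Alternaria against mock leaves (4 under upper-quartile scaling). VPS15 rose by 1.16 ± 0.09, the catalytic subunit gene VPS34 by 0.96 ± 0.09, ATG14a by 0.79 ± 0.14 and ATG6 by 0.49 ± 0.07 (0.31 under upper-quartile scaling). VPS38, whose protein joins this complex in its endosomal form, averaged 16.2 CPM in Alternaria leaves and 16.8 CPM in mock leaves and did not pass. Among other proteins that bind ATG8 or link it to membranes, 9 of 11 genes rose (8 under upper-quartile scaling), beside 29.5% of all tested genes. ATI2, for an ATG8-interacting membrane protein, rose by 1.36 ± 0.08, the ubiquitin receptor gene DSK2B by 0.92 ± 0.06, the exocyst gene EXO70B1 by 0.88 ± 0.09 and the endosomal sorting gene FREE1 by 0.84 ± 0.06. The largest adjusted p among the 20 genes named as risen in these 5 lists was 3.74e-04 (edgeR quasi-likelihood test).

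Against untreated leaves, which share the Alternaria libraries, 27 of the 32 core genes rose and 0 fell (33.1% and 31.8% of all tested genes), and all 11 receptors and adaptors rose. Under upper-quartile scaling 10 of those 11 rose, and with a minimum count of 30 it was 9. Among the 11, TSPO had only 1 to 21 reads per library. Of the core genes, 6 of 8 for conjugation and 6 of 8 of the ATG1 complex rose under upper-quartile scaling. In that setting 6 of 10 genes of the ATG9, ATG2 and ATG18 list and 3 of 6 of the phosphatidylinositol 3-kinase complex rose. Also under that scaling, 1 gene fell in each of 3 core lists. In mock against untreated leaves 4 of the 32 rose and 2 fell (15.1% and 14.1% of all tested genes), and 3 of the 11 receptors and adaptors rose. ATG2 rose by 0.82 ± 0.09 there (adjusted p = 7.50e-05, edgeR quasi-likelihood test). None of the 8 conjugation genes and none of the 6 genes of the phosphatidylinositol 3-kinase complex passed in mock against untreated leaves. In alternatives, ATG14a passed as lower under upper-quartile scaling, with a minimum count of 30 and without untreated replicate 2 (adjusted p = 0.0417, 0.0424 and 0.0258). ATG3 passed as higher in the 6-library fit and without Alternaria replicate 1 or 3 (adjusted p = 0.0319, 0.0350 and 0.0488, all edgeR quasi-likelihood test). Without untreated replicate 2, 1 ATG1 complex gene, in place of 3, and 1 receptor or adaptor gene passed as higher.

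**Figure D4:**
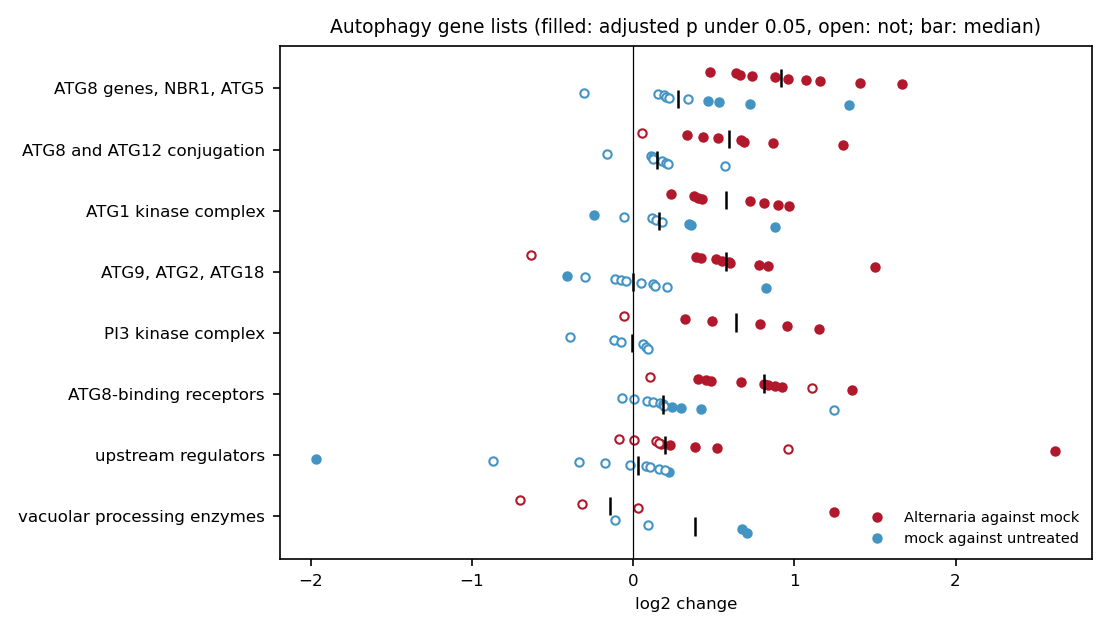
Log2 change of each gene of 8 autophagy lists in Alternaria against mock and in mock against untreated leaves; filled points passed the test, open ones did not, and black bars are list medians. In Alternaria against mock the 10 genes of the set have the highest median (0.92), and in mock against untreated the medians lie near 0 in most lists, with HY5 as the point near -1.96.

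Among known upstream regulators 5 of 10 rose and 0 fell in Alternaria against mock leaves, or 3 and 1 under upper-quartile scaling, beside 29.5% and 26.1% of all tested genes. WRKY33, for a transcription factor needed for resistance to fungi of this kind, stood at 235, 224 and 316 CPM in Alternaria libraries, 44.7, 41.4 and 40.1 CPM in mock libraries and 64.1, 42.5 and 52.8 CPM in untreated libraries. Only its Alternaria libraries stood apart. Its log2 change in Alternaria against mock was 2.62 ± 0.15 (adjusted p = 4.70e-08, edgeR quasi-likelihood test). TOR, for the kinase that restrains autophagy when nutrients are plentiful, rose by 0.38 ± 0.07 (0.21 under upper-quartile scaling). Of the adaptor genes that control the stability of ATG6 and ATG13, TRAF1b rose by 0.52 ± 0.08 (0.34 under upper-quartile scaling) and TRAF1a by 0.23 ± 0.07. The TRAF1a call was lost under upper-quartile scaling (adjusted p = 0.500) and without mock replicate 3 (adjusted p = 0.0638).

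HY5, for a light-signalling factor known to hold down ATG5 and ATG8e transcription, was singled out after its values were seen. It stood at 12.7, 10.9 and 15.7 CPM in Alternaria libraries, 12.4, 13.5 and 13.2 CPM in mock libraries and 57.0, 50.8 and 45.1 CPM in untreated libraries. Alternaria and mock libraries overlapped, far below the untreated ones. It differed by 0.00 ± 0.13 in Alternaria against mock (adjusted p = 0.977, edgeR quasi-likelihood test) and by -1.96 ± 0.12 in mock against untreated leaves (adjusted p = 8.82e-07, edgeR quasi-likelihood test). Its part in the levels of ATG8e and ATG5 was not tested. TGA9, a known activator of ATG8 genes, averaged 0.414 CPM in Alternaria, 0.207 CPM in mock and 0.369 CPM in untreated leaves and passed no test.

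Profiles over the 9 libraries were compared by Pearson's r of log2 CPM among 21864 nuclear genes, as a description, since libraries of a group share their treatment. NBR1 was most like ATI2 (AT4G00355, r = 0.998), SUFE2 (AT1G67810, r = 0.998) and ACLA-3 (AT1G09430, r = 0.997), but 2298 genes had an r over 0.95 with it. ATG8f was most like TLP7 (AT1G53320, r = 0.998), AT5G05110 (r = 0.996) and UEV1D-4 (AT3G52560, r = 0.995), with 1494 genes over 0.95. ATG5, with mock lowest, had 232 genes over 0.95 and was most like AT4G34310 (r = 0.994), AT1G73650 (r = 0.989) and AT1G13360 (r = 0.989). Such an r does not weigh the size of a change. In Alternaria against mock ATI2, SUFE2 and ACLA-3 had log2 changes of 1.36, 4.39 and 0.98, beside 1.16 for NBR1. For TLP7, AT5G05110 and UEV1D-4 they were 0.81, 1.02 and 0.20, beside 1.07 for ATG8f. The genes named with ATG5 had 0.88, 1.16 and 0.88, beside 0.88 for ATG5. Among the 10 genes themselves the 45 pairs had an r of 0.650 to 0.987, with a median of 0.913.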

How the data were processed

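Per the submitters' processing notes, the authors checked reads with FastQC, aligned them to TAIR10 with TopHat2 2.0.12, counted them with HTSeq and compared groups with DESeq2 1.8.2. The HTSeq strand setting is not given in the sources used here. Raw counts per gene were deposited for each library. The authors' deposited comparison tables hold a normalized mean count per gene (a signal), log2 changes with their SE, a Wald score, p-values and adjusted p-values. Lines that are not genes (7.73 to 11.2% of a library) were left out.

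The 10 genes, the other lists and the tests were chosen with earlier results of these data known. The genes named by rule are the 10 listed ones, ATG8c, and from each autophagy list up to 4 genes with the smallest adjusted p in Alternaria against mock. Other genes given with values, such as ATG12b, ATG18e, VPS38, HY5, TGA9 and single cell markers, were named outside that rule. Genes passing edgeR's filterByExpr (minimum count 10) were fitted with edgeR 4.0.16 in R 4.3.3, in 1 model of 9 libraries with TMM scaling and 6 residual degrees of freedom, and the quasi-likelihood F test was adjusted over 22019 genes. CPM are trimmed-mean-scaled, with a prior count of 2 only for log2 profiles. The 95% intervals use the degrees of freedom of the edgeR test and cover the spread between these libraries. The same code was tested on simulated counts. No 2 libraries of a group agreed within counting noise (chi-square per degree of freedom 7.07 to 16.0). Sequences, exon lengths and positions came from RefSeq's TAIR10.1. Alternatives used limma 3.58.1 and DESeq2 1.42.0.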

Additional observations from a re-analysis of the deposited data

How the results depend on the processing

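The 10 genes rose in Alternaria against mock and against untreated leaves in all 18 alternatives (RLE and upper-quartile scaling, no filter, a minimum count of 30, DESeq2, limma-voom, 6-library fits, a replicate block, no organelle genes, and 9 fits without 1 library each). In mock against untreated leaves 3 to 5 of them rose. For the 39 genes named by the rule above, 2097 combinations of gene, comparison and alternative were compared. Of these, 2019 kept direction and call, 40 lost a call, 15 gained one and 23 changed sign.

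Sign changes lay among differences that did not pass the test. In Alternaria against mock alphaVPE was -0.15 under upper-quartile scaling. In mock against untreated FREE1 was -0.017 under upper-quartile scaling and -0.017 with a minimum count of 30, TRAF1a was 0.013 without a filter, and deltaVPE was -0.069 with limma-voom. Leaving out each library in turn, alphaVPE ranged from -0.10 to 0.12 in Alternaria against mock, -0.25 to 0.32 in Alternaria against untreated and -0.28 to 0.29 in mock against untreated. In mock against untreated VPS34 ranged from -0.13 to 0.020, TRAF1a from -0.045 to 0.030, deltaVPE from -0.53 to 0.41, FREE1 from -0.027 to 0.052, ATG10 from -0.047 to 0.26, VPS15 from -0.0017 to 0.18, EXO70B1 from -0.13 to 0.018 and ATG8g from -0.059 to 0.31. The difference in the ATG8f share ranged from -1.89 to 0.38 percentage points in Alternaria against mock, and that of ATG8i from -0.69 to 0.35 in mock against untreated. Genes called higher in mock against untreated leaves numbered 3332, and 2119 to 3513 with a library left out, lowest without untreated replicate 2. The causes were not tested.

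No pairing by replicate number was seen. Same-numbered libraries of different groups correlated at -0.0652 to 0.0341 in their deviations from group means, and other pairs at -0.110 to 0.0804. Of 9 libraries 0 correlated best with its own number. The labels do not say whether a number marks a shared batch, and with 3 libraries a group these values cannot settle it. With a replicate block 11940, 13942 and 6020 genes passed in the 3 comparisons, against 12241, 14288 and 6442 without, and 10, 10 and 4 of the 10 genes rose. ATG13a passed in mock against untreated leaves with an adjusted p of 0.0497 and lost its call under the block (0.0639, both edgeR quasi-likelihood test). That call was also lost under upper-quartile scaling (adjusted p = 0.0585), with a minimum count of 30 (0.0581), with limma-voom (0.0708) and in the 6-library fit (0.0548). Leaving out any untreated library, mock replicate 2 or 3, or Alternaria replicate 1 or 3 lost it too. With 3 libraries a group, shares of ATG8 reads cannot reach an exact permutation p under 0.1.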

Other observations

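Of 4 genes of vacuolar processing enzymes, proteases that act in the vacuole where autophagosomes deliver their load, 1 rose and 0 fell in Alternaria against mock leaves, beside 29.5% and 26.1% of all tested genes. In mock against untreated leaves 2 of the 4 rose (15.1% of all tested genes), or 1 without untreated replicate 2. gammaVPE, the form known from leaves under attack and in senescence, stood at 206, 305 and 252 CPM in Alternaria libraries, 89.0, 114 and 118 CPM in mock libraries and 60.0, 71.1 and 65.5 CPM in untreated libraries. Its groups formed 3 separate steps, like those of ATG8e. It rose by 1.24 ± 0.14 on the log2 scale in Alternaria against mock (adjusted p = 7.63e-06) and by 0.71 ± 0.14 in mock against untreated leaves (adjusted p = 0.00280, edgeR quasi-likelihood test). betaVPE, best known from seeds, averaged 21.3 CPM in Alternaria, 26.5 CPM in mock and 16.7 CPM in untreated leaves. It rose by 0.68 ± 0.19 in mock against untreated (adjusted p = 0.0204, edgeR quasi-likelihood test), a call lost without untreated replicate 2, untreated replicate 3 or mock replicate 3 (adjusted p = 0.0916, 0.0808 and 0.101). Under upper-quartile scaling it was lower in Alternaria against mock (-0.50, adjusted p = 0.0300, edgeR quasi-likelihood test). Expression of alphaVPE and deltaVPE lay under 1 CPM in every library.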
